A study of Aedes aegypti and Anopheles culicifacies with 47 samples.

Results

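The olfactory tissue and the brain of adult female *Aedes aegypti*, a mosquito that bites by day, were compared at 6am. All count files of this species, these tissues and this clock time were taken, 2 olfactory libraries (replicates 1 and 3) and 2 brain libraries (replicates 1 and 3), which are 4 of the 31 libraries with a count file in the series. The labels give both tissues as wild type, from females 5 to 6 days old of a shared cohort, kept at 27 °C and 80% relative humidity in a light cycle of 12 h on and 12 h off. Olfactory tissue was a pool of antennae, maxillary palps, proboscis and labium. The series also covers 3 other clock times and *Anopheles culicifacies*, and its stated purpose was to compare the daily rhythm of both tissues between the species.

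The antennae, palps and proboscis carry the sensilla of a mosquito, cuticular hairs that house the dendrites of sensory neurons bathed in lymph secreted by support cells. The cell bodies of these neurons lie in the appendage, and their axons run to the brain, where central neurons and glia process the signal. A pool of appendages therefore holds neurons together with support cells, epidermis and cuticle, and in bulk tissue fewer cells of a type and less RNA per cell cannot be told apart. Olfactory titles name read 1 and brain titles do not, so tissue and the handling of the libraries cannot be told apart either.

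The files pair no gene ID with a name, and 0 of the 19804 IDs matched an entry of the RefSeq gene table (assembly AaegL5.0). The tissue labels were therefore not checked against marker genes, and genes are described as groups, with at most 2 IDs named in each direction. Counts are reads per gene, not divided by gene length.

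The 4 libraries differed in depth. Reads assigned to genes numbered 2771654 and 2118412 in olfactory replicates 1 and 3, and 7733365 and 5072614 in brain replicates 1 and 3. Shares were taken of the reads in genes, in no gene, ambiguous or aligned to several places, without unaligned or low-quality reads. Reads in no annotated gene took 24.2% and 11.9% in the olfactory libraries and 17.9% and 20.9% in the brain libraries. The olfactory libraries thus lay on both sides of the brain libraries. With 2 libraries against 2, an exact two-sided permutation test of a single value cannot go below p = 0.333, so these values carry no test.

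Reads of the olfactory libraries were concentrated in few genes, in large part in a single gene. The most counted gene of olfactory tissue took 16.2% and 17.7% of the reads in genes in replicates 1 and 3, and 1.85% and 1.35% in brain replicates 1 and 3. Its log2 change between the tissues was 4.13 (SE 0.70, adjusted p = 0.000358, edgeR quasi-likelihood test), and the groups did not overlap. The same gene was also the most counted in brain replicate 1 and the second most counted in brain replicate 3. Exact binomial 95% intervals on these shares were at most 0.10 percentage points wide and cover counting error only. The 10 most counted genes held 23.9% and 26.3% of the reads in olfactory replicates 1 and 3, against 8.26% and 8.39% in brain replicates 1 and 3. It took 109 and 125 genes to reach 50% of the reads in the olfactory libraries and 437 and 395 in the brain libraries. This number and the share of the 10 most counted genes both include the most counted gene. Neither was taken without it.

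The gene with the highest mean in brain differed between the olfactory libraries. It held 1.76% and 2.08% of the reads in brain replicates 1 and 3, and 0.157% and 0.710% in olfactory replicates 1 and 3. It was lower in both olfactory libraries, with a log2 change of -1.44 (SE 0.56, adjusted p = 0.048, edgeR). The call did not pass without olfactory replicate 1 (log2 change -0.75, adjusted p = 0.275), without brain replicate 1 (-1.52, adjusted p = 0.095) or without brain replicate 3 (-1.35, adjusted p = 0.137), and the adjusted p ran from 0.00179 to 0.275 over the alternatives (edgeR and DESeq2). Without olfactory replicate 3 the log2 change was -2.84.

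More genes were detected in olfactory tissue at equal depth. With each library thinned at random to 2104487 reads, 12442 and 11505 genes had a read in olfactory replicates 1 and 3 and 10964 and 10862 in brain replicates 1 and 3, so the groups did not overlap. Genes with at least 10 reads numbered 8170 and 7882 in the olfactory libraries and 7965 and 7703 in the brain libraries, where the ranges overlapped.

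Replicates lay closer together than the tissues did. In the 9207 genes averaging 10 reads or more, the Pearson correlation of log2(CPM + 1), where CPM is counts per 1e6 reads after scaling, was 0.896 between the olfactory replicates and 0.971 between the brain replicates. Between tissues it was 0.445 to 0.539. These correlations are across genes, which are not independent replicates.

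**Figure D1:**
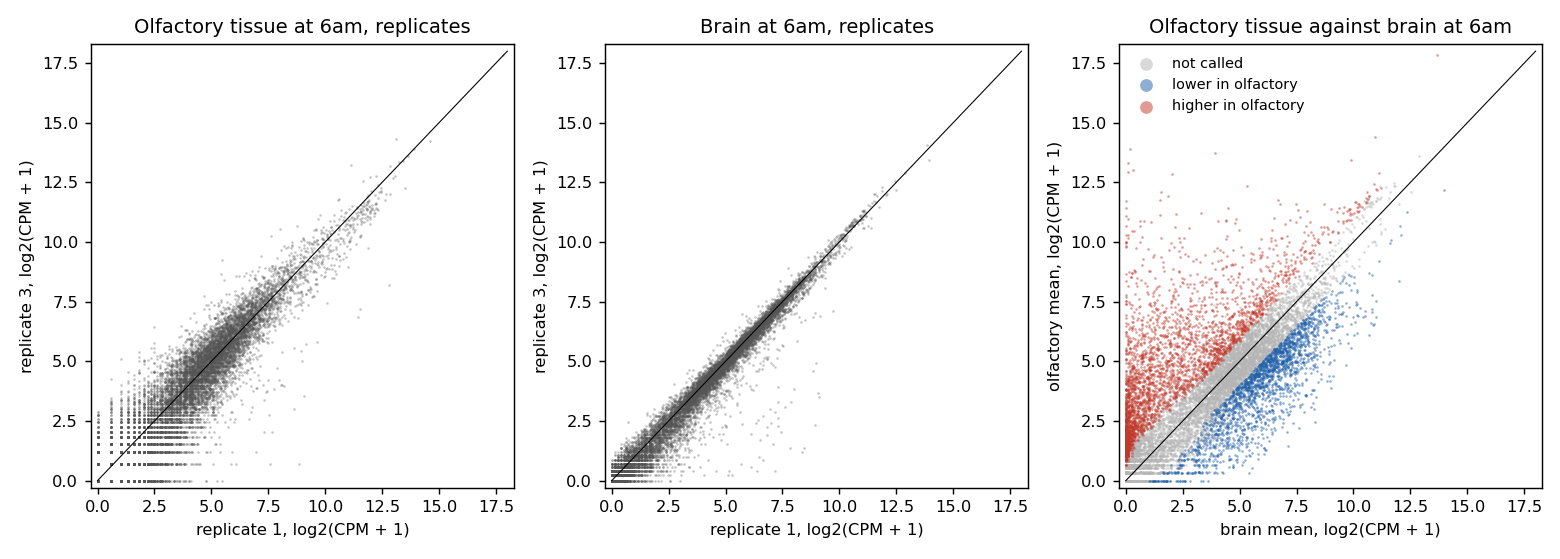
Level of each tested gene as log2(CPM + 1) at 6am, with replicate 1 against replicate 3 in olfactory tissue (left) and brain (middle), and the mean of both brain libraries against the mean of both olfactory libraries (right). In the right panel genes called higher in olfactory tissue are red, genes called lower blue and others grey, and each line marks equal levels. The red points run along the left edge at brain levels near 0, and few blue points reach the lower edge.

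The comparison of the tissues at 6am found differences in a large part of the genes. Of 11442 genes tested, 3079 were higher in olfactory tissue (26.9%) and 2117 were lower (18.5%), together 5196 (45.4%), at an adjusted p under 0.05 and a log2 change of at least 1 (edgeR quasi-likelihood test, Benjamini-Hochberg adjustment). The spread was estimated over all 16 *Aedes* libraries. The split rested on the scaling. Called genes were higher in olfactory tissue in 59.3% of cases with TMM scaling, which assumes that most genes do not differ, and in 35.3% with library totals alone (2087 higher, 3831 lower). The median log2 change of all tested genes was 0.22 with TMM and -0.53 with library totals.

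With TMM scaling, genes higher in olfactory tissue changed by more than genes lower there. These sizes rest on the scaling as well. The median log2 change of all tested genes was 0.22 with TMM and -0.53 with library totals, where the sizes by direction were not taken. The median log2 change was 3.61 among the genes called higher and -1.93 among those called lower. The median level of the genes called higher was 27.8 CPM in olfactory tissue and 1.88 CPM in brain. Genes called lower had a median of 69.7 CPM in brain and 17.9 CPM in olfactory tissue. Of the 3079 genes called higher, 752 had at most 3 reads over both brain libraries. Of the 2117 called lower, 152 had at most 3 reads over both olfactory libraries. So most genes of both directions were still read in the low tissue. The olfactory libraries were shallower, and the part of depth in these sizes was not tested.

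The 2 directions differed most among the largest changes. Ratios were taken between the reads summed over the 2 libraries of each tissue, with TMM scaling and a floor of 3 reads over the low tissue. Of the genes called higher in olfactory tissue, 656 were at least 32-fold higher (5.73% of the tested genes), and of those called lower, 26 were at least 32-fold lower (0.227%). A further 1660 genes called higher and 938 called lower changed by 4 to 32-fold. Between 2 and 4-fold the order turned, with 754 called higher and 1129 called lower.

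**Figure D2:**
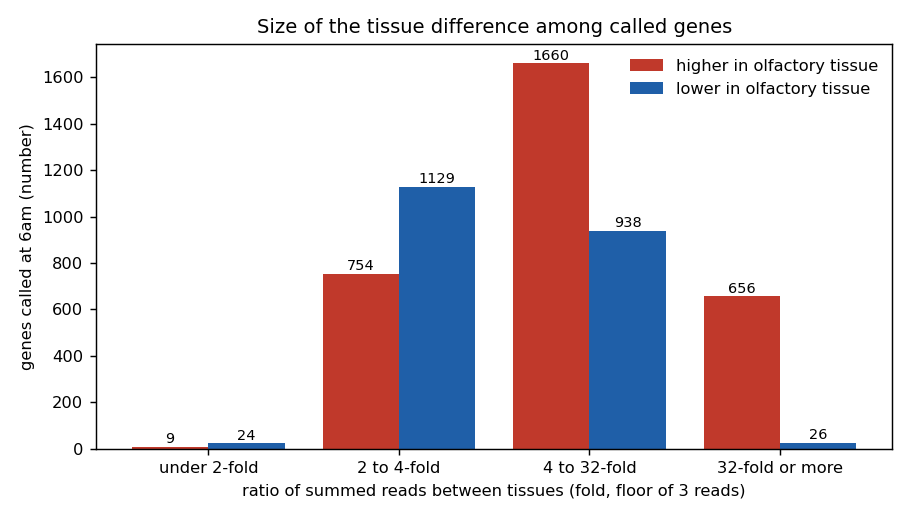
Number of genes called at 6am by the ratio of summed reads between the tissues, with a floor of 3 reads in the low tissue; red bars count genes higher in olfactory tissue and blue bars genes lower there. At 32-fold or more there were 656 red and 26 blue genes, and between 2 and 4-fold 754 red and 1129 blue.

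The brain libraries were deeper, so a gene at a few reads in brain gives a larger ratio than the reverse. The count was therefore repeated without a test over all 19681 genes readable in the 4 libraries. There 695 genes were at least 32-fold higher and 27 at least 32-fold lower in olfactory tissue. With the 4 libraries thinned to the shallowest, the counts were 493 and 27. Library totals in place of TMM, not thinned, gave 451 and 95, with the order kept. Without brain replicate 3 they were 540 and 32, and without olfactory replicate 3 they were 721 and 32.

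Genes read in 1 tissue alone were few. Of 7547 genes with at least 10 reads in both olfactory libraries, 72 had 0 reads in both brain libraries (0.954%). Of 8579 genes with at least 10 reads in both brain libraries, 35 had 0 reads in both olfactory libraries (0.408%). At equal depth the counts were 140 of 7372 (1.90%) for olfactory tissue and 8 of 7522 (0.106%) for brain. Thinning can remove a few reads, so a gene at 0 there may have had reads as counted. The most counted of the 140 reached 16599 reads in a thinned olfactory library, while none of the 8 was above 35 reads in a thinned brain library. As counted, the 72 olfactory genes reached at most 7177 reads and the 35 brain genes at most 124. Before thinning, at 3 reads per library, a count of 0 allows up to 1.5 and 1.9 CPM in olfactory replicates 1 and 3. In brain replicates 1 and 3 it allows up to 0.33 and 0.48 CPM, and more once these libraries are thinned.

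The genes called higher held 65.2% and 61.6% of the reads of tested genes in olfactory replicates 1 and 3, and 15.8% and 13.7% in brain replicates 1 and 3. The genes called lower held 5.05% and 6.94% in the olfactory libraries and 38.4% and 39.7% in the brain libraries. The genes at least 32-fold higher alone held 15.6% and 16.7% of the olfactory reads and 0.180% and 0.097% of the brain reads. These genes were chosen on the same libraries, so the shares describe their weight and test nothing.

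The most abundant transcripts were partly shared. Of the 100 genes with the highest mean in each tissue, 59 were in both lists (59.0% of each). In the olfactory list 63 genes were called higher in olfactory tissue, 2 lower and 35 neither, and 20 were at least 32-fold higher. In the brain list 25 were called lower in olfactory tissue, 22 higher and 53 neither, and 0 were at least 32-fold lower (edgeR). Of all tested genes 26.9% were called higher and 18.5% lower. Those called and at least 32-fold apart were 5.73% higher and 0.227% lower. Both lists were picked on the tissue means that the calls use, so these counts describe them and test nothing.

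Calls depended on the level of a gene, differently for the 2 directions. Of the 2861 tested genes with the lowest means over the 4 libraries (up to 4.55 CPM), 28.6% were called higher and 4.61% lower. Of the 2861 with the highest means (from 57.0 CPM), 27.0% were called higher and 31.1% lower. A count of 3 reads in a library lay at 1.5 and 1.9 CPM in olfactory replicates 1 and 3, near the level of the first of these groups. The calls used no floor of reads. The part of low olfactory counts in these shares was not tested.

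The 2 genes that led the ranking in each direction, by the difference of mean log2 CPM among called genes with a mean of at least 10 CPM, are named. AAEL014615 had 29505 and 24205 reads in olfactory replicates 1 and 3 (15200 and 15300 CPM) and 1 read in each brain library. Both olfactory libraries were high and both brain libraries near 0. Its log2 change was 16.61 (SE 0.77, adjusted p = 3.1e-08, edgeR), a fitted value that rests on 2 brain reads. The ratio of summed reads was 117000, with an exact binomial 95% interval of 32400 to 967000 for counting error.

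AAEL004301 had 18747 and 16599 reads in olfactory replicates 1 and 3 (9660 and 10500 CPM), 1 read in brain replicate 1 and 0 in brain replicate 3. Its log2 change was 16.84 (SE 0.86, adjusted p = 6.18e-08, edgeR), or 18.78 without brain replicate 1, which left 0 brain reads, and 16.22 without brain replicate 3. The ratio of summed reads was 154000 (95% interval 27700 to 6090000), so the 2 leading genes could not be ordered by their ratio. The 12 leading genes in this direction had means of 1020 to 15300 CPM in olfactory tissue and 0 to 4 reads over both brain libraries, with 6 of them at 0.

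AAEL008055 had 409 and 246 reads in brain replicates 1 and 3 (44.8 and 39.6 CPM), 1 read in olfactory replicate 1 and 0 in olfactory replicate 3. Both brain libraries were high and both olfactory libraries near 0. Its log2 change was -7.12 (SE 1.29, adjusted p = 0.000724, edgeR), and the ratio of summed reads in brain to olfactory tissue was 150.0 (95% interval 26.9 to 5940). The fitted change was -11.00 without olfactory replicate 1, which left 0 olfactory reads, and -6.31 without olfactory replicate 3.

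AAEL027067 had 1233 and 900 reads in brain replicates 1 and 3 (135 and 145 CPM), against 1 and 6 reads in olfactory replicates 1 and 3 (0.516 and 3.8 CPM). The groups did not overlap. As a ratio the olfactory libraries differed from each other more than the brain libraries did, on 1 and 6 reads. In CPM the SD was 2.32 in olfactory tissue and 6.89 in brain. Its log2 change was -6.10 (SE 0.54, adjusted p = 2.05e-06, edgeR), or -5.20 without olfactory replicate 1 and -8.04 without olfactory replicate 3. Its line lay near an overwritten stretch of text in at least 1 file, so an altered digit cannot be told apart from a count. The 12 leading genes in this direction had means of 42.2 to 319 CPM in brain and 1 to 27 reads over both olfactory libraries.

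**Figure D3:**
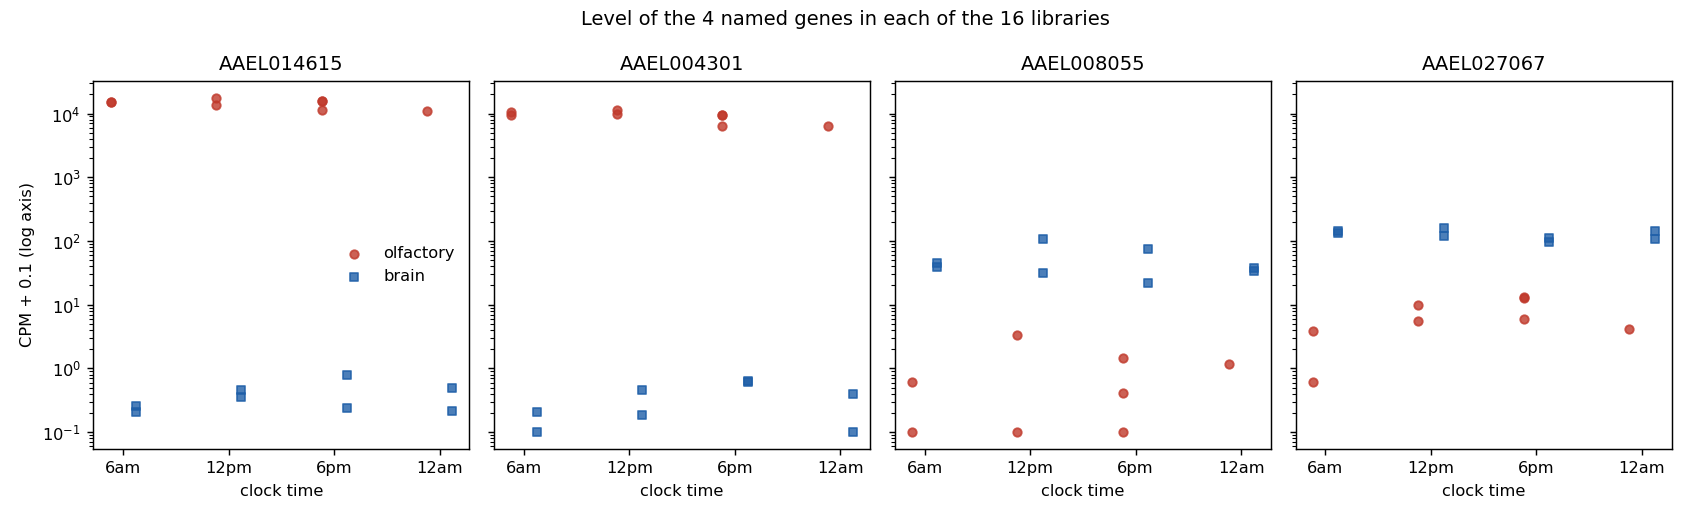
Level of the 4 named genes in each of the 16 *Aedes* libraries, as CPM + 0.1 on a log axis, by clock time; red circles are olfactory libraries and blue squares brain libraries. The tissues stay apart at each of the 4 clock times, by far more for AAEL014615 and AAEL004301 than for AAEL008055 and AAEL027067.

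Levels at the other clock times did not enter the ranking of these genes, but the 12 libraries took part in the scaling, the low-count filter and the spread behind the calls. AAEL014615 lay at 10900 to 17700 CPM in the 6 other olfactory libraries (median 14600) and at 0.113 to 0.695 CPM in the 6 other brain libraries, with log2 changes of 15.57 at 12pm, 14.85 at 6pm and 15.22 at 12am. AAEL004301 lay at 6300 to 11400 CPM in olfactory tissue and at 0 to 0.541 CPM in brain. AAEL008055 lay at 21.5 to 108 CPM in brain and at 0 to 3.24 CPM in olfactory tissue, and AAEL027067 at 95.6 to 159 CPM in brain and 4.0 to 13.1 CPM in olfactory tissue. None of the 4 genes had overlapping tissues in these 12 libraries. The share of all tested genes without overlap there was not taken.

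Most of the genes called at 6am were also called in the same direction at each other clock time. Of the 3079 genes called higher at 6am, 2641 were also called higher at 12pm (85.8%), 2180 at 6pm (70.8%) and 1932 at 12am (62.7%), where 28.6%, 21.2% and 18.1% of all tested genes were called in that direction. Of the 2117 called lower, 1842 (87.0%), 1614 (76.2%) and 1336 (63.1%) were called lower at those times, against 21.1%, 17.5% and 13.2% of all tested genes. Olfactory tissue had 2 libraries at 12pm, 3 at 6pm and 1 at 12am, where the lone library was given the spread of the other groups, and brain had 2 at each. Of the 11442 tested genes, 1703 were called higher at all 4 clock times (55.3% of those higher at 6am). Called lower at all 4 clock times were 1185 (56.0% of those lower at 6am).

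A call in the opposite direction was rare. At 6pm and 12am 0 of the genes called at 6am passed the other way (edgeR). At 12pm 1 did, a gene called higher at 6am with 10 and 11 olfactory reads against 18 and 8 brain reads, and with 1 and 0 olfactory reads against 18 and 27 brain reads at 12pm. The sign was the same as at 6am in 98.1 to 99.4% of the genes called higher and in 99.3 to 99.7% of those called lower, over the 3 other times. The share over all tested genes was not taken, so these shares describe the called genes alone. The genes called at 6am but at no other time numbered 233 (7.57%) among those higher and 126 (5.95%) among those lower.

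**Figure D4:**
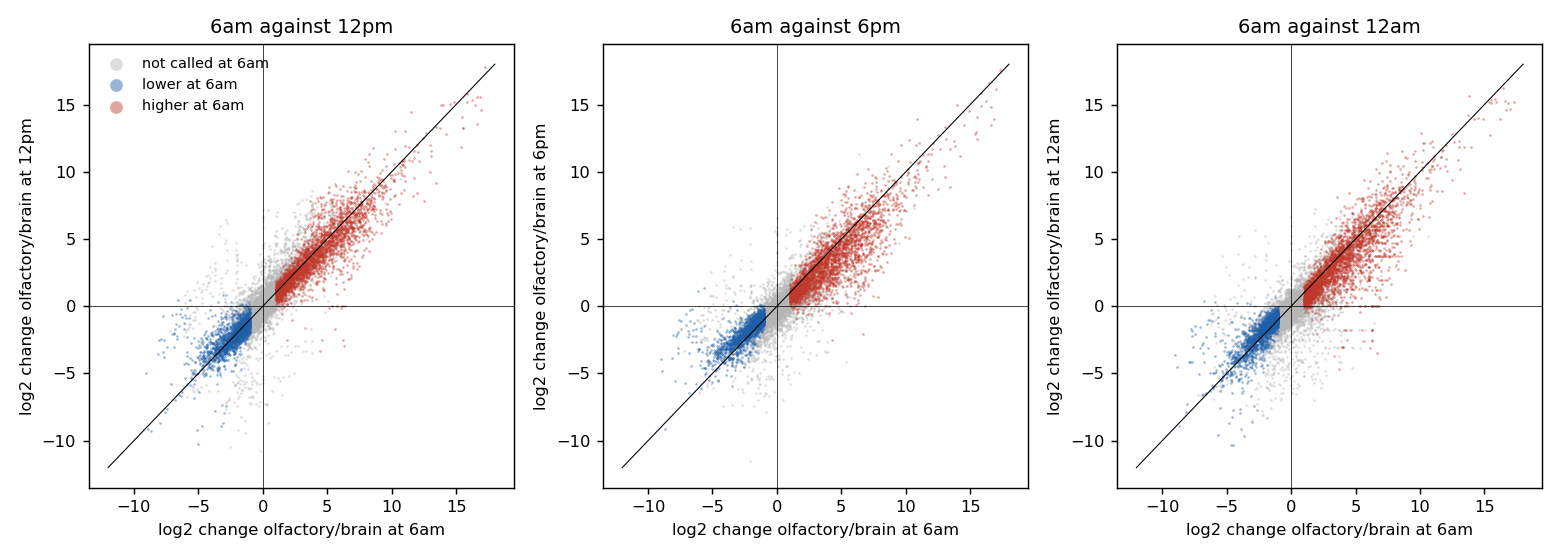
Fitted log2 change between olfactory tissue and brain for each of the 11442 tested genes at 6am (horizontal axis) and at 12pm, 6pm and 12am (vertical axes), with red for genes called higher at 6am, blue for genes called lower, grey for others, and a line of equal change. Points follow the line in each panel, and few red or blue points cross the horizontal axis.

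Across genes, the log2 changes at 6am had a Pearson correlation of 0.902 with those at 12pm, 0.896 with those at 6pm and 0.880 with those at 12am (n = 11442 genes, given as a description). Over the 7280 genes with a mean of at least 10 CPM at 6am it was 0.966, 0.956 and 0.957, and the change differed from that at 6am by a median of 0.35 to 0.37 on the log2 scale.

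Whether any tissue difference was particular to 6am was tested directly, as the difference at 6am minus the mean difference at the 3 other clock times. Of 11442 genes, 0 passed at an adjusted p under 0.05 (0.0%, edgeR), and DESeq2 also gave 0. Before adjustment 228 genes had p under 0.05 in edgeR (1.99%), 144 with a larger value at 6am and 84 with a smaller one, and 276 in DESeq2. The median SE of this difference was 0.41 on the log2 scale over the 7280 genes with a mean of at least 10 CPM. That 0 genes passed does not show that the tissue difference was equal at all 4 clock times.

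The libraries of 1 tissue also differed from each other. At equal depth, the median size of the log2 difference between replicates 1 and 3 was 0.56 in olfactory tissue (7794 genes reaching 10 CPM in a library) and 0.21 in brain (6738 genes). More than a 2-fold difference was seen in 24.7% of these genes in olfactory tissue and in 4.07% in brain. Among the tested genes reaching 10 CPM, not thinned, 83 were over 8-fold higher by CPM + 1 in olfactory replicate 1 than in replicate 3 and 14 the other way.

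In brain all 44 genes over 8-fold apart were higher in replicate 1. Their median was 111 CPM in brain replicate 1 and 2.82 CPM in brain replicate 3, which is how they were chosen. In olfactory tissue, which entered the choice through the scaling and the low-count filter alone, their median was 41.5 CPM in replicate 1 and 5.06 CPM in replicate 3. Of the 44 genes, 17 were also among the 83 of olfactory replicate 1, which is 38.6% of the first list and 20.5% of the second. Both lists came from the 11442 tested genes. Across the 6 other brain libraries their median ran from 0.0992 CPM in 12am replicate 1, where 20 of the 44 had 0 reads, to 77.0 CPM in 12pm replicate 1. In the 6 other olfactory libraries it was 0.310 to 5.14 CPM. The median of all tested genes was 13.7 to 18.4 CPM in every library. TMM scaling tends to hold this median level, so it is given as a description. Of the 44, 1 was called between the tissues at 6am, as higher in olfactory tissue, and 43 were not called. Of all tested genes 45.4% were called. The 44 were chosen for a wide gap within brain, which makes a tissue call unlikely, so their count tests nothing. What sets their level was not tested.

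**Figure D5:**
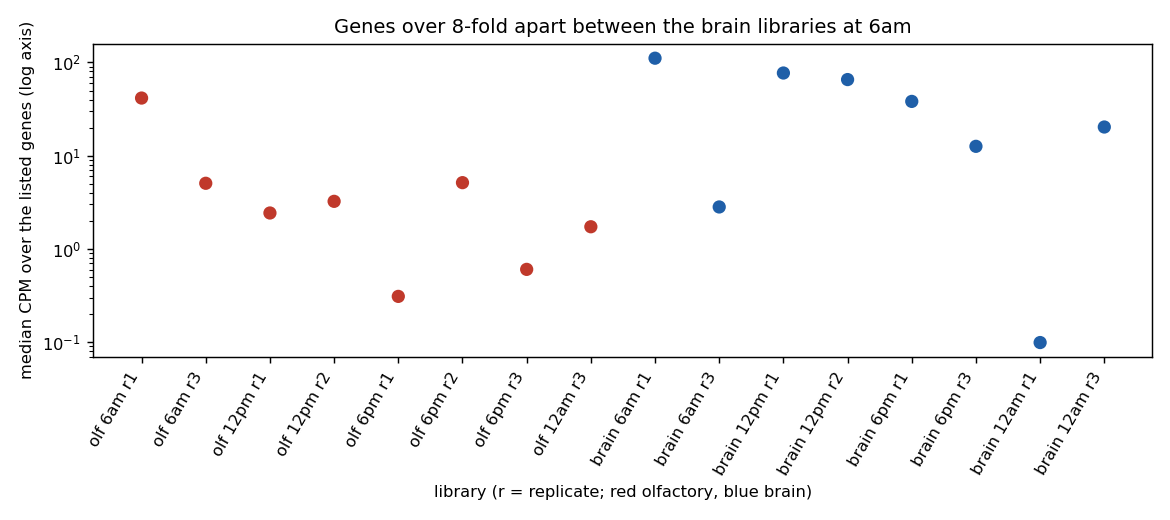
Median CPM, on a log axis, of the 44 genes over 8-fold higher in brain replicate 1 than in brain replicate 3 at 6am, in each of the 16 *Aedes* libraries (red olfactory, blue brain). The median ranges from 0.0992 CPM in brain at 12am replicate 1 to 111 CPM in brain at 6am replicate 1, and among the olfactory libraries it is highest in 6am replicate 1, at 41.5 CPM.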

How the data were processed

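Total RNA was made into libraries with NEBNext Ultra II reagents (labels' protocols). Each deposited file gives 1 library's raw counts of reads by gene ID. The submitters' processing notes list bcl2fastq, FastQC, STAR and HTSeq; the build, annotation and strandedness used were not given in the sources used here. Counts of overlapping genes, antisense genes and near-identical copies are therefore uncertain. Lines naming no gene were left out. Those for reads in no gene, ambiguous or aligned to several places took 29.9 to 48.1% of the reads at 6am, in a total without unaligned or low-quality reads.

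Stretches of text were overwritten in the files, 14 of them in the 4 files at 6am. Of 19804 genes, 405 were unreadable in at least 1 *Aedes* library (2.05%; 123 at 6am) and were left out of the fits, and 7957 fell below edgeR's filterByExpr limit.

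One edgeR fit (TMM, robust quasi-likelihood) covered all 16 *Aedes* libraries, with a level for each tissue and clock time and contrasts at 6am. Benjamini-Hochberg adjustment ran over all 11442 tested genes. SEs were derived from each contrast's F statistic (absolute log2 change divided by the root of F) and are approximate at low counts. Replicates are separate samples in the titles, and whether they were separate dissections is not stated beyond the word biological in the series' design, so p-values measure the spread between these samples. Replicate numbers did not pair the samples by the labels. The script was tested on simulated data. Members and rules were chosen with earlier results of these data known. Gene lists by name had been planned and were not applied, as no ID matched a name. Genes were named by the largest difference of mean log2 CPM (prior count of 2) among called genes with a mean of at least 10 CPM, 2 a direction. The most counted gene of each tissue is described without its ID, and a few single genes and the 44 genes that set the brain libraries apart were picked after their values were seen. Tests ran in R 4.3.3 with DESeq2 1.42.0, edgeR 4.0.16 and limma 3.58.1. Summaries and plots used matplotlib 3.10.9, scipy 1.17.1, pandas 2.3.3 and numpy 2.4.6 under Python 3.11.15.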

Additional observations from a re-analysis of the deposited data

How the results depend on the processing

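The counts of genes called at 6am stayed within 1.5 times under DESeq2, DESeq2 size factors, no low-count filter, thinning, the 4 libraries at 6am alone (2292 higher, 1773 lower) and the removal of genes near overwritten text. With 1 library left out they were 2130 to 3028 higher and 1717 to 2261 lower. Library totals gave 3831 genes lower and a limit of a mean of 50 counts 1997 higher; glmTreat against a log2 change of 1 gave 1219 lower. Of genes called at all 4 clock times, 2068 were lower with library totals, 705 lower with thinning to the shallowest and 1127 higher with the mean of 50 counts; without 1 library they were 1550 to 1646 higher and 1060 to 1225 lower. Genes at least 32-fold apart were 451 and 95 with library totals, and 540 to 721 and 22 to 32 without 1 library. The test against the other clock times gave 0 genes in every alternative run, by edgeR at 118 to 950 genes with an unadjusted p under 0.05, and by DESeq2 at 276. Fewer genes tested accounts by construction for part of the lower counts under the count limits and thinning. With the mean of 50 counts, 1588 of the 1997 genes higher and 1446 of the 1446 lower were called so in the main fit. With thinning it was 2093 of 2372 higher and 1427 of 1456 lower. The median log2 change of tested genes was 0.08 with the mean of 50 counts and 0.22 in the main fit. Library totals drop the TMM factors, 0.711 and 0.759 in olfactory replicates 1 and 3 and 1.21 and 1.25 in brain replicates 1 and 3. By construction this lowers the log2 changes. Why the factors differ between the tissues was not tested. With the replicate number as a block (replicate block), 3167 genes were higher and 2211 lower, and 2410 and 1987 in the fit of the 4 libraries; the differences between replicates 1 and 3 had a correlation of 0.203 between the tissues over 9207 genes, a hint from the data and not the design. The block changed the call of none of the 4 named genes. All 4 named genes passed in every alternative that gave them a value. The most counted brain gene lost its call in 8 alternatives. Before thinning, a count of 0 allows up to 1.5 and 1.9 CPM in the olfactory libraries. In the brain libraries it allows up to 0.33 and 0.48 CPM. The 32-fold counts and the counts over all 4 clock times were alternatives chosen after seeing the data.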
